A study of Homo sapiens with 8 samples.

Results

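The libraries labelled *CIC* KO were compared with the WT libraries of the PNT2 line, an immortalized line of human prostate epithelium. The members are 4 of the 8 RNA-seq libraries in the series, 2 per group (replicates A and B), chosen by the sample labels alone. WT cells are parental PNT2. In the study's methods, *CIC* KO lines were made with either of 2 single guide RNAs and blasticidin selection, *ERF* KD lines with a lentiviral short hairpin RNA and puromycin selection, and *ERF* KD + *CIC* KO lines with both. The sources used here do not say which guide or hairpin a library carries or whether a letter marks a separate culture, so p-values measure the spread between these libraries, which may be technical. The samples are bulk RNA, in which fewer cells of a type and less RNA per cell cannot be told apart.

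*CIC* encodes Capicua, a DNA-binding repressor that sits on genes induced by growth factor signalling. Its best described targets are the PEA3 factors *ETV1*, *ETV4* and *ETV5* and negative regulators of the MAP kinase cascade such as the Sprouty, SPRED and DUSP families. When receptor tyrosine kinases activate ERK, Capicua is inactivated and these genes are released. *ERF* encodes an ETS-domain repressor that is likewise exported from the nucleus by ERK signalling, and it competes for ETS sites that activating ETS factors use. The genes lie side by side on chromosome 19, *ERF* at chr19:42247572-42255157 on the minus strand and *CIC* at chr19:42268537-42295797 on the plus strand (GENCODE release 29, GRCh38).

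The labels and the data disagree on which gene was targeted in these libraries. The deposited files of the 2 libraries labelled *CIC* KO are tagged with the letter that the sample titles give to *ERF* KD, and the files of the libraries labelled *ERF* KD are tagged with the letter for *CIC*. *ERF* mRNA was at 55.8 and 55.9 CPM (counts scaled to library size with TMM factors) in WT A and B, and at 18.8 and 11.7 CPM in the libraries labelled *CIC* KO. It was at 81.2 and 77.8 CPM in the libraries labelled *ERF* KD and at 11.6 and 10.4 CPM in *ERF* KD + *CIC* KO. The low values were thus in *ERF* KD + *CIC* KO and in the libraries labelled *CIC* KO, with no overlap with WT or with the libraries labelled *ERF* KD. Cuts directed by a guide RNA need not alter the mRNA level of a gene, so *CIC* mRNA is no check of the knockout. The labels were kept as deposited, every direction given below is that of the libraries labelled *CIC* KO, and which gene was lost in them was not tested.

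*ERF* was the gene with the smallest p of all genes tested in labelled *CIC* KO against WT. Its mean was 55.9 ± 0.0566 CPM in WT and 15.3 ± 4.98 CPM in the libraries labelled *CIC* KO (SD over 2 libraries each). The fitted log2 fold change was -1.87 (SE 0.211), or 3.66-fold lower in linear terms. Without the replicate letter in the model the adjusted p was 0.248 (edgeR's quasi-likelihood test, Benjamini-Hochberg), and with the letter as a block *ERF* fell by 1.89 on the log2 scale with an adjusted p of 0.0477. The longest protein-coding transcripts lay apart from WT. ERF-201 was at 21.2 and 20.6 TPM (an abundance corrected for transcript length) in WT and at 5.45 and 3.70 TPM in the libraries labelled *CIC* KO. ERF-202 was at 8.59 and 7.30 TPM in WT and at 4.27 and 1.92 TPM. The short transcript ERF-205 (227 bases, a processed transcript and not protein-coding) overlapped between the groups, at 12.2 and 19.6 TPM in WT and at 17.8 and 6.33 TPM. It rested on few estimated counts, 7 and 10.8 in WT and 11 and 4 in the libraries labelled *CIC* KO. ERF-201 had 814 and 812 in WT. Exons of *ERF* and of AC006486.1 have 155 bases in common on one strand, and counts there may be divided.

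*CIC* mRNA was nearly level. It was at 128 and 129 CPM in WT and at 132 and 131 CPM in the libraries labelled *CIC* KO, with a fitted log2 difference of 0.03 (SE 0.155, adjusted p = 1, edgeR). The libraries labelled *ERF* KD held 109 and 109 CPM, and *ERF* KD + *CIC* KO held 90.9 and 66.4 CPM. Its co-repressor partners bracketed zero. *ATXN1* was at 31.2 and 28.6 CPM in WT and at 37.0 and 34.0 CPM in the libraries labelled *CIC* KO (log2 fold change 0.25, SE 0.139). *ATXN1L* was at 88.9 and 80.7 CPM against 75 and 71.3 CPM (log2 fold change -0.21, SE 0.157). Of the 17 tested genes of the *CIC*-*ERF* neighbourhood, with *ERF* and *CIC* included, *ERF* alone had an unadjusted p under 0.05 and the median log2 fold change was -0.02.

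**Figure D1:**
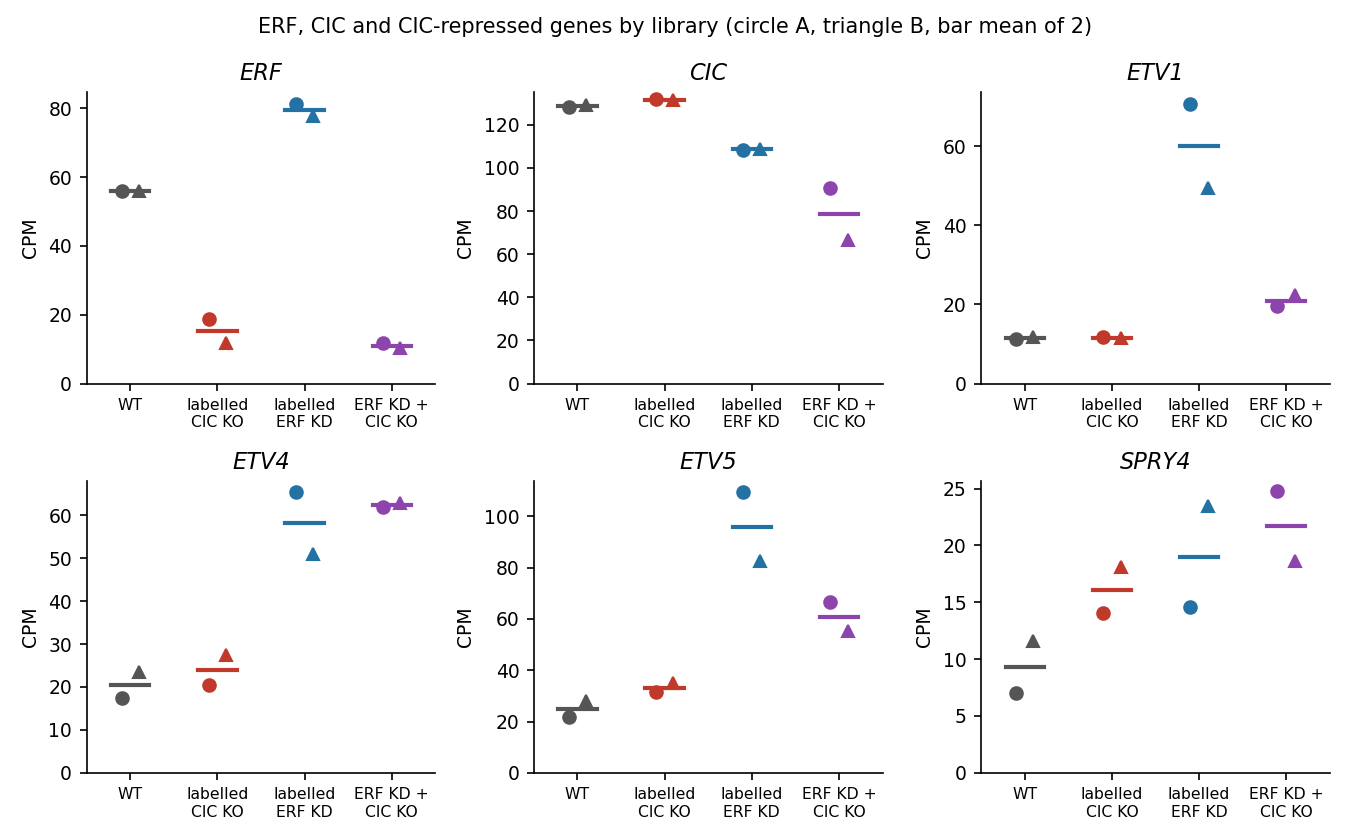
CPM (y axis, from 0) of *ERF*, *CIC*, *ETV1*, *ETV4*, *ETV5* and *SPRY4* in each library, grouped by label on the x axis; circles are replicate A, triangles replicate B and bars the mean of 2. *ERF* sits at 18.8 and 11.7 CPM in the libraries labelled *CIC* KO against 55.8 and 55.9 CPM in WT, whereas *ETV1* sits between 11.4 and 11.8 CPM in both groups.

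The 4 libraries held 21069498 to 22920344 estimated counts, of which 93.3% fell on genes, and the 8 of the series 19477473 to 25813157. Of 14653 genes tested, 0 had an adjusted p under 0.05 without the block (0% called) and 1, *ERF*, with it (0.00682%). At an unadjusted p under 0.05, 241 genes were higher (1.64%) and 346 lower (2.36%) without the block, and 1133 passed in either direction with it (7.73%). DESeq2, with its own size factors, called 25 genes, 5 higher and 20 lower (0.127% of the genes it gave an adjusted p). Both libraries labelled *CIC* KO lay above both WT libraries for 2355 genes (16.1%) and below both for 2356 (16.1%). The smallest p an exact permutation test allows for 2 libraries against 2 is 0.333.

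The root mean square log2 difference over all genes tested was 0.385 between WT A and WT B, and 0.481 between the 2 libraries labelled *CIC* KO. WT A and labelled *CIC* KO A were 0.358 apart, and WT B and labelled *CIC* KO B were 0.404 apart. Each library labelled *CIC* KO was therefore nearer to the WT library of its own letter than to its own replicate. Labelled *CIC* KO A was also nearer to WT B, at 0.422, than to its replicate, whereas labelled *CIC* KO B was 0.526 from WT A. The 2 libraries labelled *ERF* KD were 0.721 to 0.820 from those labelled *CIC* KO, and the 2 *ERF* KD + *CIC* KO libraries 0.424 to 0.559.

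**Figure D2:**
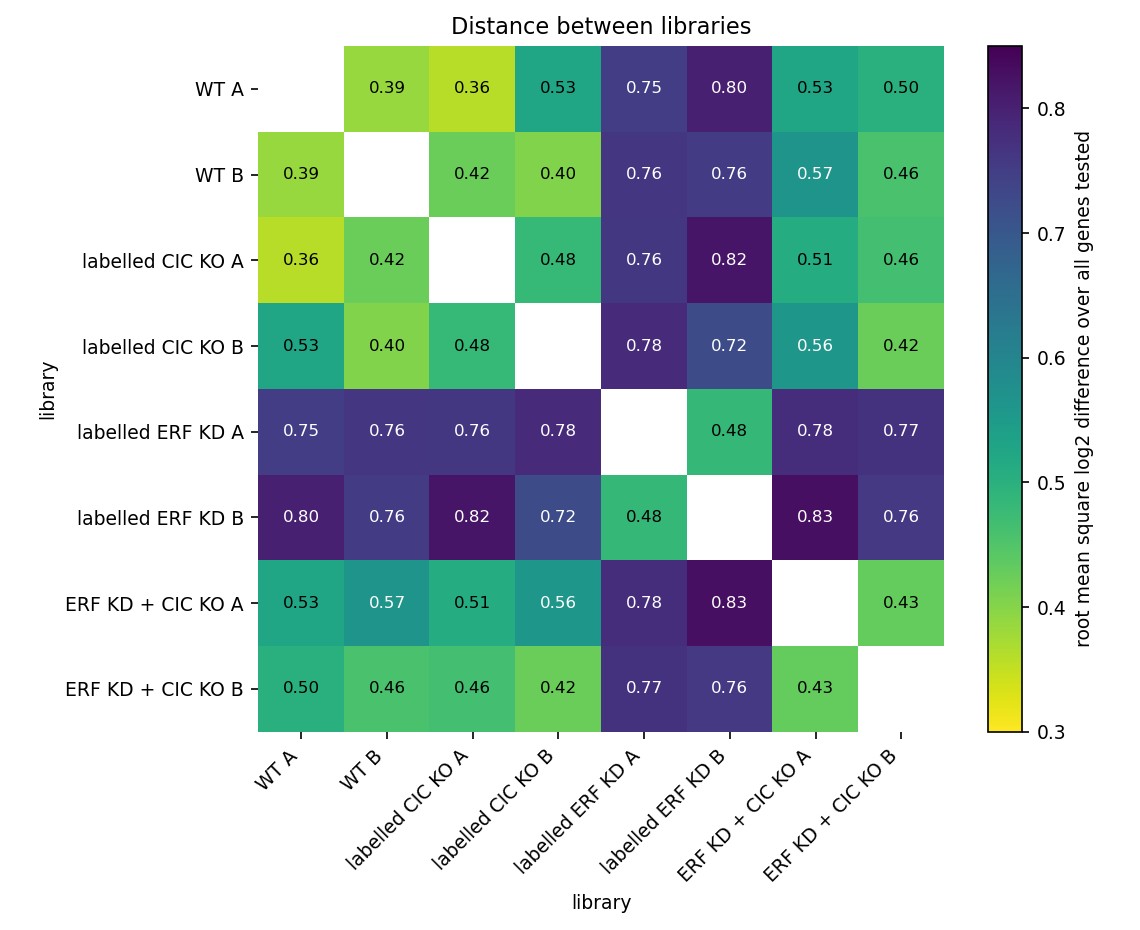
Root mean square log2 difference over all 14653 genes tested for each pair of the 8 libraries, named on both axes by group and replicate letter (colour and printed value). The pairs WT A with labelled *CIC* KO A, at 0.358, and WT B with labelled *CIC* KO B, at 0.404, are closer than the 2 libraries labelled *CIC* KO are to each other, at 0.481.

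The PEA3 factors, the read-out genes of Capicua loss, stayed near WT. *ETV1*, an ETS activator and the study's shared target of both repressors, was at 11.4 and 11.7 CPM in WT and at 11.8 and 11.4 CPM in the libraries labelled *CIC* KO (log2 fold change 0.01, SE 0.198, and -0.24 with length-scaled counts). *ETV4* was at 17.4 and 23.5 CPM in WT and at 20.4 and 27.3 CPM (log2 fold change 0.22, SE 0.212). Both genes overlapped between the groups, with replicate B above replicate A for *ETV4* in each. *ETV5* was at 21.8 and 28.1 CPM in WT and at 31.4 and 34.9 CPM, which do not overlap, with a log2 fold change of 0.41 (SE 0.194, unadjusted p = 0.0649, adjusted p = 1, edgeR). Its exons have 164 bases in common with those of *DGKG*. By qRT-PCR in PNT2 cells, the study reported higher *ETV1*, *ETV4* and *ETV5* after *CIC* KO. After *ERF* silencing it reported higher *ETV1*, but not *ETV4* or *ETV5*. Why *ETV1* was level in the libraries read here was not tested.

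The feedback inhibitors of MAP kinase signalling leaned upward without passing the adjusted test. *SPRY4*, a Sprouty inhibitor of receptor tyrosine kinase signalling, was at 6.98 and 11.6 CPM in WT and at 14 and 18.1 CPM in the libraries labelled *CIC* KO (log2 fold change 0.79, SE 0.322, unadjusted p = 0.0381). *DUSP5*, a nuclear ERK phosphatase, was at 36.9 and 41.2 CPM against 51.4 and 52.3 CPM (log2 fold change 0.41, SE 0.178, unadjusted p = 0.0493). *DUSP4* was at 78.6 and 85.3 CPM against 90.3 and 127 CPM (log2 fold change 0.40, SE 0.212). In these genes both libraries labelled *CIC* KO exceeded both WT libraries. *DUSP6*, the cytoplasmic ERK phosphatase, overlapped between the groups, at 4.99 and 9.58 CPM against 6.83 and 13.9 CPM. *SPRY2*, *SPRED1* and *SPRED2* had log2 fold changes of 0.08, -0.07 and 0.19.

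Over the 10 CIC-repressed genes, 0 were called and 2 had an unadjusted p under 0.05 (both higher, 20%, against 1.64% of all genes). The libraries of 5 did not overlap, all higher (50%, against 16.1% of all genes higher in that way). The median log2 fold change was 0.31, against 0.01 over all genes tested. In the single libraries, the median over the list stood 0.09 above the WT mean (log2) in labelled *CIC* KO A and 0.42 above it in labelled *CIC* KO B, whereas the WT libraries stood at -0.07 and 0.07. The upward shift was larger in replicate B, and without that library the list median was 0.09. The same medians were 0.80 and 1.06 in the libraries labelled *ERF* KD and 0.75 and 0.53 in *ERF* KD + *CIC* KO.

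The libraries labelled *CIC* KO and those labelled *ERF* KD differed in the PEA3 factors. In a direct contrast of the groups, 1377 of 14653 genes were called (9.4%), 549 higher and 828 lower in the libraries labelled *ERF* KD. *ETV1*, at 70.7 and 49.4 CPM there, was higher by 2.37 on the log2 scale (SE 0.201, adjusted p = 0.00028, edgeR). *ETV5*, at 109 and 82.6 CPM, was higher by 1.53 (SE 0.194, adjusted p = 0.00214). *ETV4*, at 65.5 and 51.0 CPM, was higher by 1.29 (SE 0.211, adjusted p = 0.00723). *ERF* was itself higher by 2.38 (SE 0.214, adjusted p = 0.000393). Of the feedback inhibitors, *SPRY2* (0.85, SE 0.156, adjusted p = 0.0119) and *SPRED1* (0.72, SE 0.162, adjusted p = 0.0285) were also called higher there, whereas *SPRY4* differed by 0.24 (SE 0.315) and *DUSP5* by -0.42 (SE 0.178), neither called.

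Genes were then ranked, although few pass adjustment. The 12 protein-coding genes with the smallest p in each direction, a mean of at least 1 CPM and libraries that did not overlap were taken, and their values are a description of the ranking. The 12 ranked lower had log2 fold changes from -0.75 to -3.0 and adjusted p from 0.248 to 0.595 without the block and from 0.0477 to 0.174 with it. The 12 ranked higher had log2 fold changes from 0.54 to 1.14 and adjusted p from 0.653 to 1, and from 0.174 to 0.354 with the block. DESeq2 called 15 of these 24 genes, all 12 lower ones and 3 higher ones (*PPM1F*, *SQSTM1* and *PLTP*).

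*VCAN*, encoding the matrix proteoglycan versican, had the largest fold among the 24. It was at 5.94 and 5.91 CPM in WT (125 and 116 counts) and at 0.418 and 1.06 CPM in the libraries labelled *CIC* KO (9 and 22 counts), a fitted log2 difference of -3.0 (SE 0.393, adjusted p = 0.333, and 0.107 with the block, edgeR). The libraries labelled *ERF* KD held 40.1 and 27.4 CPM, higher by 5.51 than those labelled *CIC* KO (SE 0.407, adjusted p = 0.000162, edgeR). *VCAN* was ranked on the same libraries labelled *CIC* KO, so this contrast is not independent of the ranking. *ERF* KD + *CIC* KO held 0.212 and 0.226 CPM. *VCAN* thus stood above WT under one single-loss label and below it under the other.

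Promoters were read for genes that carry the comparison, from RefSeq on GRCh38.p14, each 300 bases from 250 before to 50 after the most upstream listed start. *ETV1* is shown because it is the study's shared target, *VCAN* because of its fold, and *PPM1F* as the gene ranked first among the higher ones. Capitals mark the ETS core GGAA on either strand and the Capicua octamers TGAATGAA, TCAATGAA, TGAATAAA and TCAATAAA on either strand, and TGAATGGA, the Capicua motif named in the study and added after the other motifs had been searched. No Capicua motif shares bases with a core in these 3. They lie at chr7:13991376-13991675 (minus strand), chr5:83471494-83471793 (plus strand) and chr22:21952799-21953098 (minus strand).
ETV1: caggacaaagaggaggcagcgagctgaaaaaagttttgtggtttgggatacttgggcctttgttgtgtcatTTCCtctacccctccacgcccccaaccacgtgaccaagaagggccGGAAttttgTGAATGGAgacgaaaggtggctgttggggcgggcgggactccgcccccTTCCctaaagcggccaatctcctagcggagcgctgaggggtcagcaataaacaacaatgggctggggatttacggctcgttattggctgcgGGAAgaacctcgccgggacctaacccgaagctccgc
VCAN: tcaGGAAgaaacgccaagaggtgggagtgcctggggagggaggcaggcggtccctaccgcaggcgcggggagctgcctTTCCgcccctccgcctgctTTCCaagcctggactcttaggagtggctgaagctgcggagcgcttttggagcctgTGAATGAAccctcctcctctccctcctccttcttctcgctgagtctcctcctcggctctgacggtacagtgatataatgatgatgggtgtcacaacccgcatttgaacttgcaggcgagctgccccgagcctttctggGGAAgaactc
PPM1F: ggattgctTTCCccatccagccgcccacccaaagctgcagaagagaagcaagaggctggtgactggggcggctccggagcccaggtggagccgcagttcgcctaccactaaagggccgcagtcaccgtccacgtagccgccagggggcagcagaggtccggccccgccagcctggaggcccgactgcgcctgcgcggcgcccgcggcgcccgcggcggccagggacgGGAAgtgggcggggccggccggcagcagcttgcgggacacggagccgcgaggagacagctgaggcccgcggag

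The *VCAN* promoter held 4 ETS cores and 1 Capicua octamer (TGAATGAA), that of *ETV1* held 4 cores and 1 copy of TGAATGGA, and that of *PPM1F* held 2 cores. An ETS core was present in 95.5% of 27305 promoters of this length, a Capicua octamer of the first 4 in 4.63% and TGAATGGA in 1.07%. Of the 12 ranked lower, 8 matched a promoter, of which 8 held a core, 1 (*VCAN*) an octamer of the first 4 and 0 TGAATGGA. Of the 12 ranked higher, 10 matched, of which 8 held a core and 0 any of the Capicua motifs. A match is a description of the letters and not evidence of binding.

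Of the other lower genes, *LPL*, lipoprotein lipase, was at 12.2 and 10.5 CPM in WT and at 1.81 and 1.97 CPM in the libraries labelled *CIC* KO (log2 fold change -2.58, SE 0.386, adjusted p = 0.353). *SCD5*, a stearoyl-CoA desaturase, was at 59.4 and 53.2 CPM against 24.8 and 25.1 CPM (log2 fold change -1.17, SE 0.167). *AGPAT5*, an acyltransferase of phospholipid synthesis, was at 54.7 and 55.5 CPM against 22.5 and 29.8 CPM (log2 fold change -1.07). That their libraries did not overlap with WT was a condition of the ranking. *OSBP2*, an oxysterol-binding protein, was at 43.9 and 43.1 CPM against 25.1 and 26.7 CPM (log2 fold change -0.75). For these genes *ERF* KD + *CIC* KO also stood below WT, and *LPL* and *SCD5* were below WT in the libraries labelled *ERF* KD as well, at 3.79 and 1.99 CPM and at 33.7 and 25.4 CPM. Over the list of 14 tested genes of fatty acid and lipid uptake, 1 was lower and 1 higher at an unadjusted p under 0.05. That is 7.14% each way, against 2.36% of all genes lower and 1.64% higher. The list median was -0.07, and *PLTP* and *ELOVL2*, which also act on lipids, were ranked higher.

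The remaining lower genes had varied roles. *PPP3CA*, the catalytic subunit of calcineurin, was at 115 and 105 CPM in WT and at 52.3 and 54.1 CPM in the libraries labelled *CIC* KO (log2 fold change -1.05, SE 0.142, adjusted p = 0.333). *HTRA1*, a secreted serine protease that cleaves matrix proteins, was at 55 and 62.4 CPM against 32.7 and 31.1 CPM (log2 fold change -0.88). *STRADB*, a pseudokinase that binds the LKB1 kinase, was at 24.8 and 26 CPM against 10.7 and 13.8 CPM (log2 fold change -1.05). *HTRA1* and *STRADB* stood above WT in the libraries labelled *ERF* KD, at 94.8 and 85.6 CPM and at 43.1 and 47.3 CPM. *SUMO2*, a ubiquitin-like modifier, was at 226 and 230 CPM against 126 and 136 CPM (log2 fold change -0.80). *ATP5F1B*, the beta subunit of the mitochondrial ATP synthase, was at 468 and 472 CPM against 258 and 275 CPM (log2 fold change -0.82). Both have near-identical copies elsewhere in the genome between which reads may be divided. *ARHGAP19*, a GTPase-activating protein, was at 39.9 and 36.7 CPM against 17.6 and 18.2 CPM (log2 fold change -1.10), and it shares 1484 exonic bases with the read-through gene *ARHGAP19-SLIT1*.

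The higher genes moved less. *PPM1F*, a phosphatase of calmodulin-dependent kinases, was at 77.2 and 77.8 CPM in WT and at 119 and 119 CPM in the libraries labelled *CIC* KO (log2 fold change 0.62, SE 0.122, adjusted p = 0.653). *SQSTM1*, the autophagy receptor p62, was at 44.2 and 44.0 CPM against 67.0 and 79.8 CPM (log2 fold change 0.73, SE 0.145). *PLTP*, the phospholipid transfer protein, was at 31.3 and 40.7 CPM against 72.0 and 65.2 CPM (log2 fold change 0.93, SE 0.196). That both libraries labelled *CIC* KO lay above both WT libraries was a condition of the ranking for all 12. *ELOVL2*, an elongase of polyunsaturated fatty acids, was at 9.02 and 11.6 CPM against 17.7 and 20.2 CPM (log2 fold change 0.87). *GLB1L2* had the largest fold of the 12, at 6.46 and 7.24 CPM against 13 and 17.3 CPM (log2 fold change 1.14, SE 0.263). *SNAPC1*, a subunit of the complex that drives small nuclear RNA genes, was at 47.0 and 53.6 CPM against 69.6 and 86.3 CPM (log2 fold change 0.63). The other 6 were *NRDE2*, *PDLIM4*, *STOM*, *BICC1*, *RCHY1* and *BCL10*, with log2 fold changes from 0.54 to 0.79. Exons of *SQSTM1* and *NRDE2* overlap those of *MRNIP* and *PSMC1* on the opposite strand, and the strandedness of the libraries is not given in the sources used here.

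**Figure D3:**
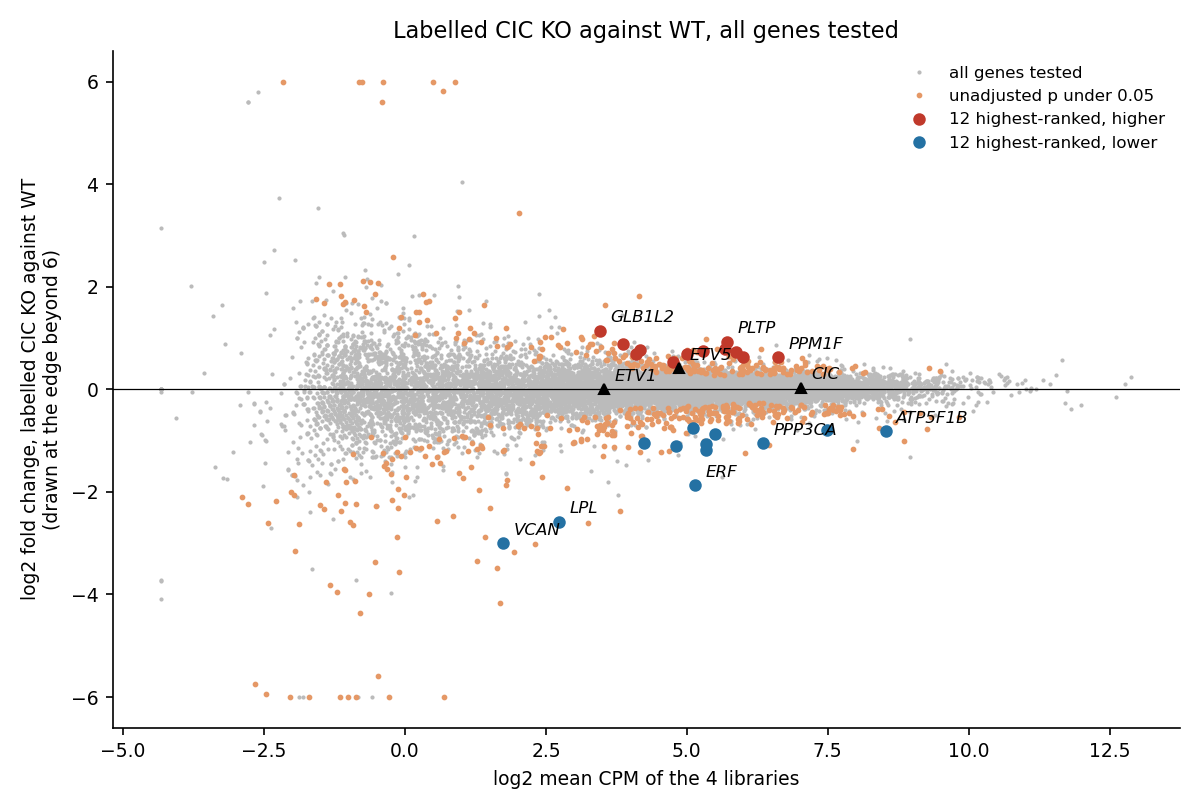
Log2 fold change of labelled *CIC* KO against WT (y axis) by log2 mean CPM of the 4 libraries (x axis) for 14653 genes (grey), with genes at an unadjusted p under 0.05 (orange), the 12 ranked higher (red) and the 12 ranked lower (blue). *ERF* stands apart from genes of its level at -1.87, while *CIC* (0.03) and *ETV1* (0.01), drawn as black triangles, lie on the zero line.

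The ranked genes were then read in the contrast of *ERF* KD + *CIC* KO against the libraries labelled *ERF* KD. It shares no library with the ranked contrast, but all 8 libraries entered the fit and its estimate of the spread. In this contrast 885 genes were called higher (6.04%) and 824 lower (5.62%), with a median log2 fold change of 0.0036 over all genes tested. Of the 12 genes ranked lower, 11 had a negative log2 fold change in it, 9 were called lower (*ERF*, *VCAN*, *PPP3CA*, *SUMO2*, *HTRA1*, *ATP5F1B*, *AGPAT5*, *OSBP2* and *STRADB*) and 0 were called higher. *HTRA1* fell by 2.04 (SE 0.140, adjusted p = 0.000106, edgeR) and *OSBP2* by 1.47 (SE 0.135, adjusted p = 0.000405). Of the 12 genes ranked higher, 6 had a positive log2 fold change, 3 were called higher (*PDLIM4*, *GLB1L2* and *BCL10*) and 5 were called lower (*PPM1F*, *PLTP*, *STOM*, *ELOVL2* and *SNAPC1*). The lower genes kept their sign in 11 of 12 cases in this contrast, and the higher genes went both ways. *ERF*, among the 11, is itself the target of the hairpin in *ERF* KD + *CIC* KO.

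Set directly against the libraries labelled *CIC* KO, *ERF* KD + *CIC* KO had 0 genes called (0%) without the block, 1216 at an unadjusted p under 0.05, and 49 called with the block. None of the 24 ranked genes was called without the block. *PLTP*, at 22.3 and 28.4 CPM in *ERF* KD + *CIC* KO, was lower there by 1.44 (adjusted p = 0.126, and 0.0308 with the block, edgeR). *PLTP* was ranked for high values in the same libraries labelled *CIC* KO, so this contrast is not independent of the ranking. *ETV4*, at 61.8 and 62.8 CPM, was higher than in the libraries labelled *CIC* KO by 1.39 (SE 0.212, adjusted p = 0.142, and 0.038 with the block). *ETV1*, at 19.5 and 22.4 CPM, was higher by 0.85 (SE 0.197, adjusted p = 0.318, and 0.113 with the block).

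**Figure D4:**
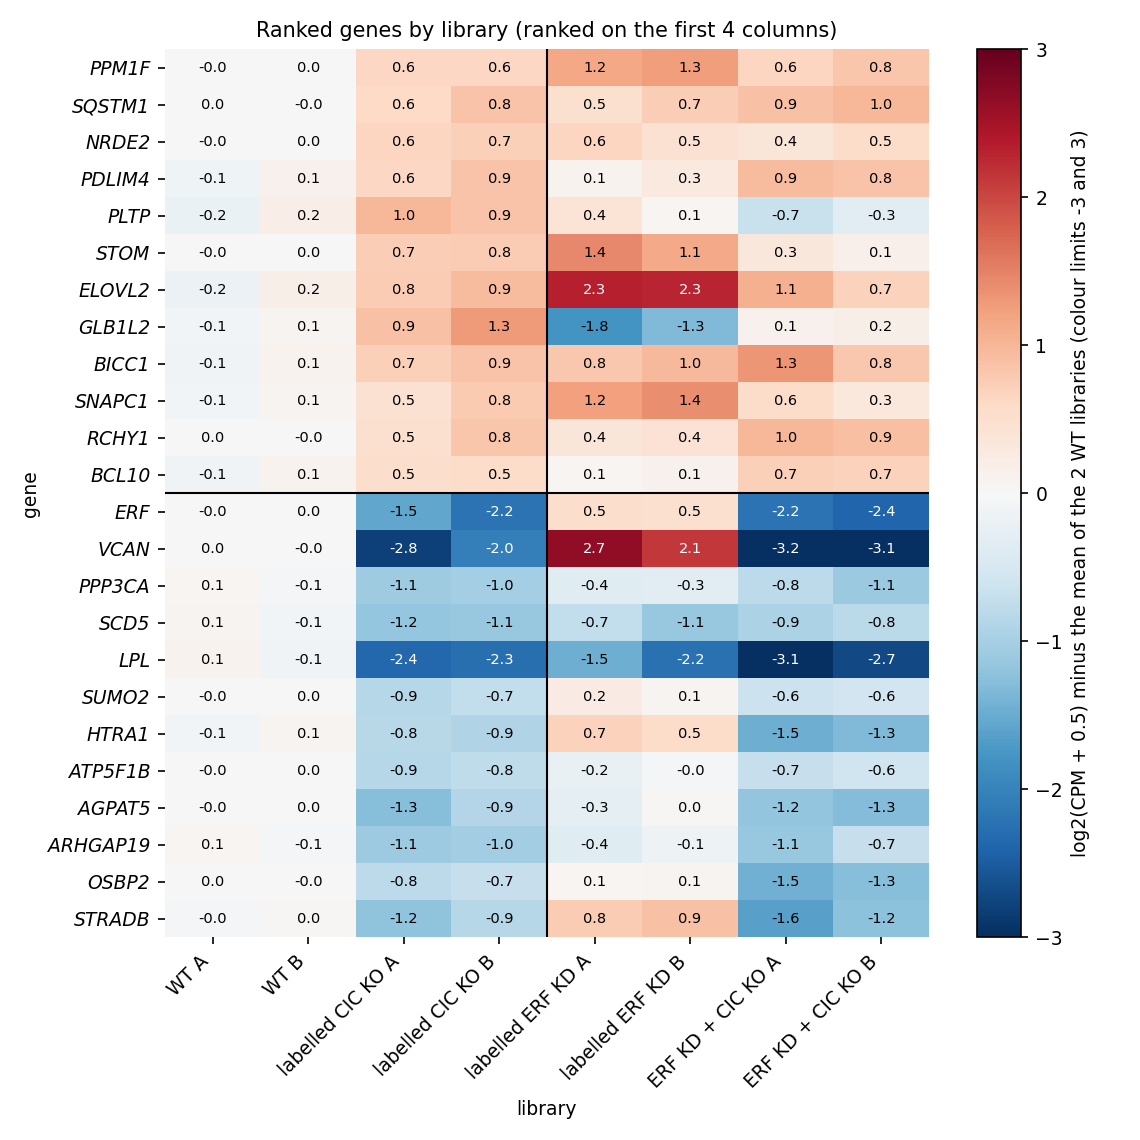
Log2(CPM + 0.5) minus the mean of the 2 WT libraries (colour and printed value) for the 24 ranked genes (y axis) in the 8 libraries (x axis), the upper block ranked higher and the lower block ranked lower on the first 4 columns. The genes ranked lower are blue in both *ERF* KD + *CIC* KO libraries, whereas *VCAN*, *HTRA1* and *STRADB* are red in the libraries labelled *ERF* KD.

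Gene lists were described by their counts and medians, and members of a list share the same libraries and are not independent. The interferon-stimulated genes, the antiviral programme that interferons induce, had the median farthest from zero among the lists, -0.58. Of 30 tested, 28 were lower, and 21 had both libraries labelled *CIC* KO below both WT libraries (70%, against 16.1% of all genes). An unadjusted p under 0.05 was found for 2, both lower (6.67%, against 2.36% of all genes), and 0 were called. Their summed level was 3784 and 5101 CPM in WT and 3215 and 2616 CPM in the libraries labelled *CIC* KO. *IFIT1*, an antiviral RNA-binding protein, was at 176 and 265 CPM against 132 and 130 CPM (log2 fold change -0.75, SE 0.282, unadjusted p = 0.0274, adjusted p = 1). The level also moved within groups, being 6584 and 2695 CPM in *ERF* KD + *CIC* KO and 3206 and 1600 CPM in the libraries labelled *ERF* KD.

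The p53 target genes leaned the other way. Of 20 tested, 18 were higher and 12 did not overlap with WT (60%, all higher, against 16.1% of all genes). An unadjusted p under 0.05 was found for 4, all higher (20%, against 1.64% of all genes). With 0 called, the median was 0.30. The list median stood 0.35 and 0.37 above the WT mean in the libraries labelled *CIC* KO, and at -0.12 and 0.12 in WT. *BTG2*, an antiproliferative p53 target, was at 21.2 and 29.8 CPM in WT and at 40.7 and 46.5 CPM (log2 fold change 0.77, SE 0.246, unadjusted p = 0.0132, adjusted p = 1). *CDKN1A*, the p21 inhibitor of cyclin-dependent kinases, chosen after its values were seen, was at 103 and 180 CPM against 196 and 239 CPM, and its WT libraries lay further apart than WT B and labelled *CIC* KO A. In the libraries labelled *ERF* KD the list median was -0.65 and -0.63, and in *ERF* KD + *CIC* KO -0.71 and -0.24, below WT. The 24 mitosis genes and 21 DNA replication genes had medians of 0.05 and -0.02.

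The 13 mitochondrially encoded genes, which specify subunits of the respiratory chain and the ATP synthase, all had negative log2 fold changes, with a median of -0.38, and 4 had an unadjusted p under 0.05 (30.8%, against 2.36% of all genes lower). Their summed level was 20165 and 19250 CPM in WT, 19106 CPM in labelled *CIC* KO A and 11739 CPM in labelled *CIC* KO B, so the difference lay mainly in replicate B. Without that library the list median was -0.13. *MT-ATP6* was at 861 and 690 CPM against 566 and 342 CPM (log2 fold change -0.77, SE 0.266, unadjusted p = 0.0191).

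Among extracellular matrix genes, 10 of 26 collagens and matrix glycoproteins did not overlap with WT and were lower (38.5%, against 16.1% of all genes) and 4 were higher, with a median of -0.14. The list median stood at -0.33 in labelled *CIC* KO A and near the WT mean in B. *COL5A1*, a fibrillar collagen chain chosen after its values were seen, was at 548 and 454 CPM in WT and at 383 and 264 CPM (log2 fold change -0.63, SE 0.196, unadjusted p = 0.0119, adjusted p = 1). *MMP14*, a membrane-bound collagenase, was at 19.4 and 13 CPM against 8.37 and 4.76 CPM (log2 fold change -1.30, SE 0.423). Of 26 axon guidance genes, 7 were lower without overlap (26.9%) and 2 higher (7.69%), against 16.1% of all genes each way. *ROBO1*, the SLIT receptor, was at 41.2 and 42.6 CPM against 29.5 and 24.4 CPM (log2 fold change -0.64, SE 0.169, unadjusted p = 0.00524). *CNTN1*, a neural adhesion molecule, was at 3.75 and 8.41 CPM in WT and at 0.232 and 0.433 CPM (log2 fold change -4.17, SE 0.831, adjusted p = 0.653, and 0.116 with the block, edgeR). DESeq2 called *CNTN1* (adjusted p = 0.00139).

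Inflammatory genes rested on 1 library. The 21 tested NF-kB cytokines and chemokines had a median of 0.53, but the list median stood at -0.20 in labelled *CIC* KO A and at 0.85 in labelled *CIC* KO B. *IL1B* was at 0.0475 and 0.051 CPM in WT, at 0.093 CPM in labelled *CIC* KO A and at 6.16 CPM in labelled *CIC* KO B. *CCL5* was lower than WT in both libraries, at 7.5 and 10.1 CPM in WT and at 1.49 and 0.674 CPM (log2 fold change -3.02, SE 0.566, adjusted p = 0.595, edgeR). DESeq2 called *CCL5* (adjusted p = 0.00103). AP-1 and immediate early genes had a median of 0.25, with 16 of 20 higher and 5 higher without overlap (25%, against 16.1% of all genes). Their list median stood at 0.02 in labelled *CIC* KO A and 0.29 in B, beside -0.20 and 0.20 in WT. *JUN* was at 94.0 and 114 CPM against 132 and 187 CPM (log2 fold change 0.62, SE 0.260, unadjusted p = 0.0444).

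**Figure D5:**
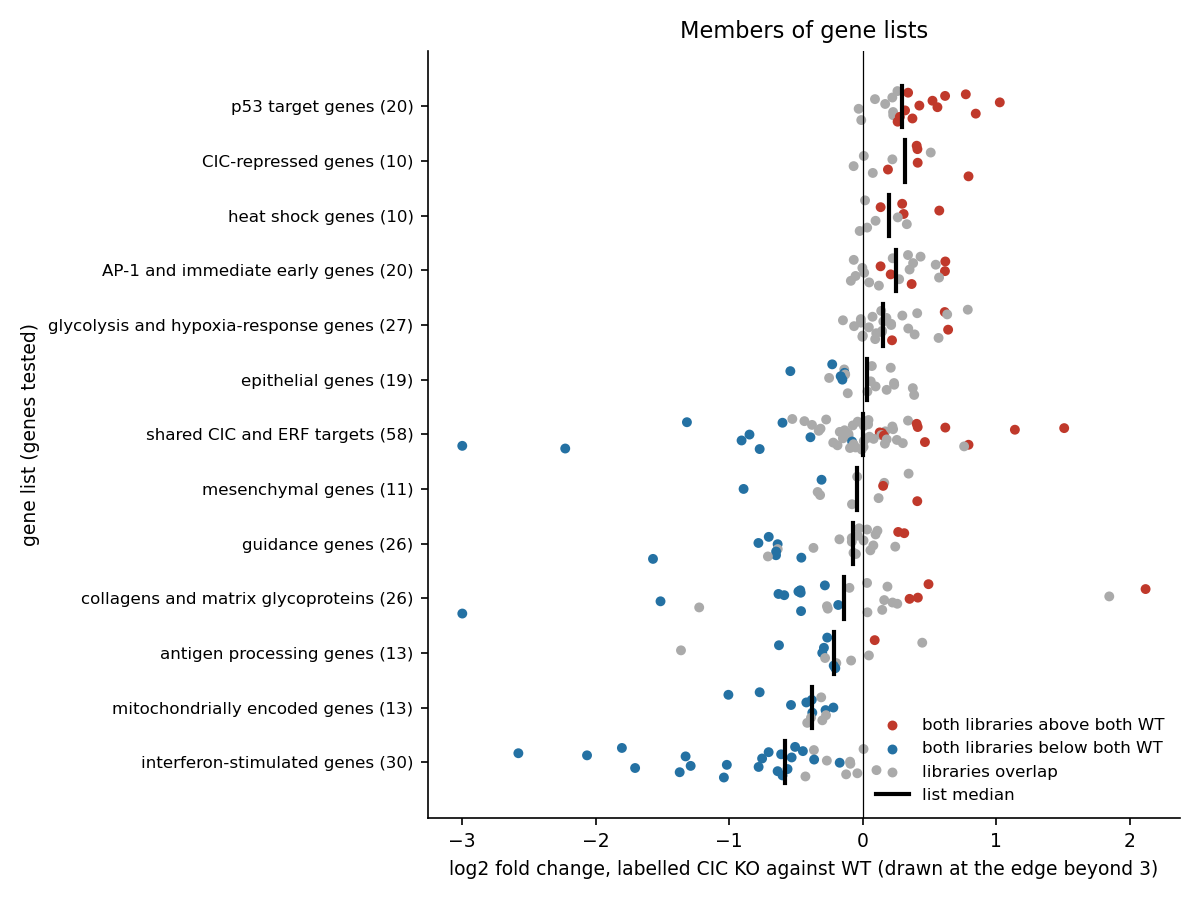
Log2 fold change of labelled *CIC* KO against WT (x axis) for the members of 13 gene lists (y axis, with the number of genes tested); red and blue points are genes whose 2 libraries lay above or below both WT libraries, grey points overlap, and bars are list medians. Interferon-stimulated genes (median -0.58) and mitochondrially encoded genes (-0.38) lie left of zero, p53 target genes (0.30) right of it, and epithelial and mesenchymal genes around it.

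The study's 91 shared targets of CIC and ERF had no common direction. Counts were found for 76 of them and 58 passed the filter, of which 29 were higher and 29 lower, 2 higher and 5 lower at an unadjusted p under 0.05 (3.45% and 8.62%, against 1.64% and 2.36% of all genes), with a median of -0.00 and 0 called. *NFIB*, a nuclear factor, was at 25.8 and 21.8 CPM in WT and at 14.6 and 10.8 CPM (log2 fold change -0.91, SE 0.297). *ZFHX4* was at 11.6 and 9.18 CPM against 6.46 and 5.73 CPM (log2 fold change -0.77, SE 0.262). *FOXL2* was at 0.332 and 0.306 CPM against 1.02 and 0.818 CPM (log2 fold change 1.51, SE 0.536). *NFIB* and *ZFHX4* were chosen after their values were seen. Among 17 tested ETS factors outside the PEA3 group, *ETS2* was at 213 and 244 CPM in WT and at 157 and 185 CPM (log2 fold change -0.42, SE 0.164, unadjusted p = 0.0329), and the median was -0.12.

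In their median and summed level, epithelial genes were near WT. The 19 tested epithelial genes had a median of 0.04 and summed to 5273 and 6239 CPM in WT and to 5451 and 6711 CPM. Without overlap, 5 of them were lower (26.3%, against 16.1% of all genes), *CDH1* included, and 0 higher. *CDH1*, E-cadherin, was at 362 and 385 CPM in WT and at 341 and 297 CPM, beside 17.6 and 17.6 CPM in the libraries labelled *ERF* KD. The 11 mesenchymal genes had a median of -0.04. The 10 tested prostate lineage genes summed to 67.7 and 74.9 CPM in WT and to 77.5 and 75.5 CPM, with a median of -0.10. *KLK3*, prostate-specific antigen and a marker of secretory prostate cells, had 0 counts in every library. For counting error only, a level up to 0.140 to 0.153 CPM remains possible in the 4 libraries compared. Of markers of other cell types, the 5 tested blood cell genes summed to 30.3 and 56.0 CPM in WT and to 38.7 and 65.9 CPM, and the 6 tested endothelial genes to 16.5 and 12.2 CPM and to 39.1 and 11.3 CPM. *CDH5*, the endothelial cadherin, made up 34.4 CPM of the sum in labelled *CIC* KO A. Of these 6 genes 5 were lower, 3 of them without overlap (50%, against 16.1% of all genes), with a median of -0.52. *PTPRC*, which defines leukocytes, was at 1.04 and 0.714 CPM in WT and at 0.883 and 0.625 CPM. The part of these cells in the results was not tested.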

How the data were processed

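Bulk RNA from PNT2 cells was sequenced in 8 libraries, 2 per group. The authors deposited transcript tables in kallisto format, with estimated counts and TPM for 180253 transcripts. The study's methods name RSEM, the labels name the build hg 19, and the kallisto version, annotation and strandedness are not given in the sources used here. Transcripts were matched by identifier to GENCODE release 29 (153245 found) and estimated counts were summed per gene and rounded. All 8 libraries entered one fit in edgeR 4.0.16 (quasi-likelihood, TMM, filterByExpr, R 4.3.3), with Benjamini-Hochberg adjustment over 14653 genes and 0.05 as the threshold. The residual degrees of freedom were 4, or 3 with the letter as a block.

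The main fit left the replicate letter out. An alternative fit took the letters as pairs, because same-lettered libraries deviated together. Correlations of the A minus B differences ran from 0.136 to 0.335 over the 6 pairs of groups. That check comes from the data and not from the labels. Replicates differed by more than sampling noise in all groups (a chi-square of 21.5 to 43.1 for each degree of freedom). Alternatives were DESeq2 1.42.0, no filter, length-scaled counts, limma 3.58.1 on log2(TPM + 1) and log2(TPM + 0.1), total count scaling, only the groups compared and leaving out each replicate. The tests were tested on simulated data. The contrast of *ERF* KD + *CIC* KO against the libraries labelled *ERF* KD was added after seeing the data. Named genes were *ERF*, *CIC*, their partners and targets, the 12 protein-coding genes of smallest p per direction (mean of at least 1 CPM, no overlap), and the gene of smallest p per direction in each list. The members and lists were chosen with earlier results of these data known. A floor of 3 counts was used for genes at 0, for counting error only.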

Additional observations from a re-analysis of the deposited data

Results flagged for a closer look

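The groups with 2 libraries were too small for a check of single libraries. A direct test of the libraries labelled *ERF* KD against those labelled *CIC* KO (edgeR, adjusted p) called 9.4% of all genes tested. Among *ERF*, *CIC*, *ATXN1*, *ATXN1L* and the 10 CIC-repressed genes it marked 6. *ERF* was higher by 2.38 on the log2 scale in the libraries labelled *ERF* KD (adjusted p = 0.000393). *ETV1* was higher by 2.37 (adjusted p = 0.00028), *ETV5* by 1.53 (adjusted p = 0.00214) and *ETV4* by 1.29 (adjusted p = 0.00723). *SPRY2* was higher by 0.85 (adjusted p = 0.0119) and *SPRED1* by 0.72 (adjusted p = 0.0285). All 6 had both libraries labelled *ERF* KD above both labelled *CIC* KO. Because the file tags are opposite to the labels, the direction of each holds for the labels as deposited.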

How the results depend on the processing

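In labelled *CIC* KO against WT, the 0 genes called became 1 with the replicate block, 25 with DESeq2 and 123 with no filter on low counts. *ERF* (-1.87) passed the threshold with the block (-1.89), with DESeq2 (-1.88) and with no filter (-1.87). It was at -2.25 without labelled *CIC* KO replicate A, at -1.57 without labelled *CIC* KO replicate B, and between these without either WT replicate. It was at -1.28 with length-scaled counts, and at -1.37 in limma with a pseudocount of 1 TPM, and the cause was not tested. *CIC* stayed between 0.023 and 0.039 when 1 replicate was left out.

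For the libraries labelled *ERF* KD against labelled *CIC* KO, 1377 calls became 2424 with the block, 2367 with no filter, 829 with only the groups compared, and 729 to 944 when 1 replicate was left out. For *ERF* KD + *CIC* KO against labelled *CIC* KO, 0 calls became 49 with the block, 132 with DESeq2 and 426 with no filter, and 0 when 1 replicate was left out. For *ERF* KD + *CIC* KO against labelled *ERF* KD, 1709 calls became 3014 with the block, 2798 with no filter, 1113 with limma on log2(TPM + 1), and 702 to 1149 when 1 replicate was left out.

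*ETV1* (0.01) turned negative under total count scaling (-0.0094), with length-scaled counts (-0.24) and in limma with pseudocounts of 1 (-0.24) and 0.1 (-0.26) TPM, and ranged from -0.017 to 0.033 when 1 replicate was left out. The sign also turned on 1 replicate for *ETV4* (-0.0062 to 0.46), *DUSP6* (-0.092 to 1.06), *SPRY2* (-0.061 to 0.20), *SPRED1* (-0.16 to 0.028), *KLF6* (-0.36 to 0.24), *MMP3* (-0.092 to 7.13), *OASL* (-0.28 to 0.63), *RRM2B* (-0.067 to 0.0043), *GAPDH* (-0.43 to 0.19), *HSPH1* (-0.18 to 0.12), *KRT5* (-0.41 to 0.88), *CD68* (-0.39 to 1.39) and *LYZ* (-2.38 to 1.67). *MMP3* had 0 and 4 counts in WT and 2 and 33 in the libraries labelled *CIC* KO, and *LYZ* 1 and 10 against 6 and 1, so depth limits both.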
